A study of Homo sapiens with 8 samples.

Results

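The adrenal cortex and chromaffin genes are 9 protein-coding genes, chosen by name from the textbook roles of their products: NR5A1, STAR, CYP11A1, CYP17A1 and CYP21A2 for the cortex, and TH, DBH, PNMT and CHGA for the medulla. All 9 were found among the 19617 coding genes of the annotation. ATAC-seq, which maps accessible chromatin by letting Tn5 transposase insert adapters into it, was run on 8 libraries of HEK293T, a line of human embryonic kidney origin with the SV40 large T antigen. By genotype label, cells of 4 libraries held an H2A lentivector and those of the other 4 an H2A(E92K) lentivector, called E92K below, and all are listed as untreated. The E92K change puts a lysine in place of a glutamate in the acidic patch, a nucleosome surface that chromatin proteins contact. The labels do not name the vector promoter or say how much of the cells' H2A is vector-derived. This lentivector is the only difference between the groups that they give. Each library has its own peak list of 55527 to 62044 peaks. The lowest background recovered from a regular sample of the peaks of each list was 2.23 to 2.93 per position. Such pileup counts are called fragments below, though what the peak caller counted is not stated. Whether the replicates came from separate cultures is not stated, so the p-values below measure only the spread between these libraries. A peak that is missing from a list was not called at that depth, which does not show that the site was closed.

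HEK293 cells were made from a culture of embryonic kidney, and an origin from the adrenal primordium beside the kidney has been proposed for them. The cortex makes steroids: the nuclear receptor SF-1, encoded by NR5A1, switches on the genes for cholesterol import and for the enzymes that turn cholesterol into cortisol, aldosterone and adrenal androgens. Chromaffin cells of the medulla arise from the neural crest, make dopamine, noradrenaline and adrenaline, and store them in granules packed with chromogranins. The question asked here is where chromatin was accessible around these genes, in which libraries, and whether this differed between the H2A groups.

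CHGA and PNMT had a peak at their promoters in all 8 libraries, and the other 7 genes had one in none. Promoters were taken as 1000 bp to either side of a start of a basic protein-coding transcript. Among all coding genes a promoter peak was found in every library for 13345 (68%) and in none for 5029 (25.6%), beside 2 (22.2%) and 7 (77.8%) of the 9. Each library had 2 of the 9 promoters with a peak, and the same 2 in each. No promoter among the 9 separated the groups, which means a peak in all 4 of one kind and 0 of the other 4. Over all coding genes 0.0306% did so, and 0% passed a Benjamini-Hochberg adjusted p of 0.05 by Fisher's exact test (6 at an unadjusted p under 0.05). The smallest p that Fisher's exact test gave in this design was 0.0286. After adjustment over all genes or regions none could pass unless most of them reached it. The 0% and the adjusted p-values below therefore cannot show whether the groups differ. For these 9 genes the exact p was 1 each, since presence was equal in the groups.

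The windows of the 9 genes, each the gene span plus 20 kb on either side, held 29 accessible regions after the 8 lists were merged. Of these 18 carried a peak in every library, 6 in 1 library and 5 in 2 to 7, whereas over all 96872 regions of the series 38.1% were present in 8 libraries and 26.5% in 1. The 29 comprised 2 at promoters of the listed genes, 3 at promoters of other coding genes, 6 inside a listed gene, 11 inside another coding gene and 7 between coding genes. Each gene except STAR had at least 1 region present in all 8 libraries. Most of the stable sites thus lay away from the starts of the 9 genes, in their last exons, in introns, in neighbouring genes or between genes. Most bases of the windows also lie there, since the windows are far wider than the promoters.

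**Figure D1:**
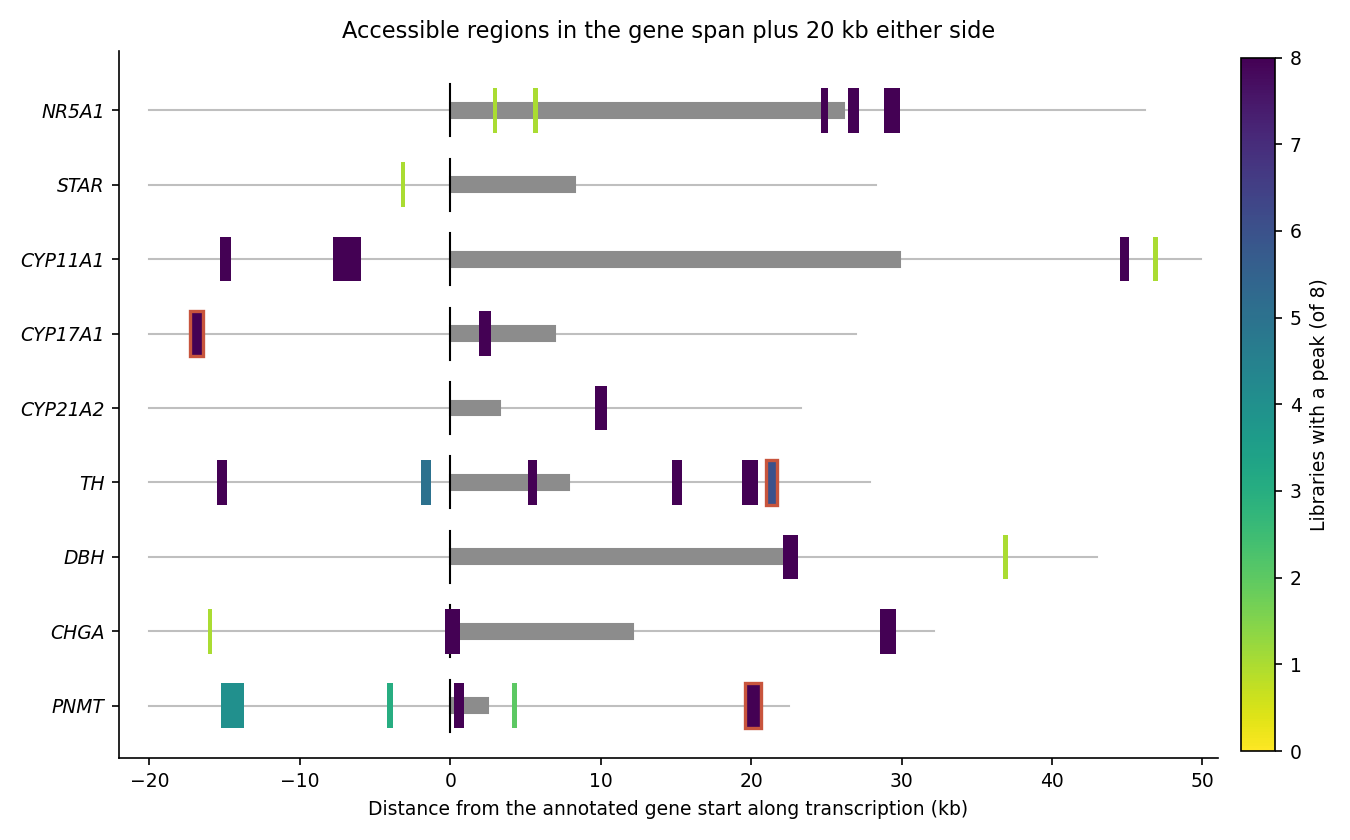
Accessible regions in the windows of the 9 genes, by distance from the annotated gene start along transcription (kb). Grey bars are gene spans, thin lines the 20 kb flanks, boxes the regions coloured by the number of libraries with a peak (of 8; narrow boxes are widened to 0.3 kb), and red outlines mark promoters of other coding genes. Boxes touch the promoter only for CHGA and PNMT, and the STAR row holds a single box from 1 library.

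NR5A1 (ENSG00000136931.10, hg38 chr9:124481236-124507420, minus strand) encodes SF-1, the master regulator of steroid-producing cells. Its promoter had no peak in any library, and the nearest peak lay 24.6 to 24.7 kb from the nearest start in 6 libraries. In H2A replicate 2 it was 5.53 kb away, in intron 3, and in H2A replicate 4 it was 2.79 kb away, in intron 1. These intronic peaks were seen in 1 library each and were weak, with folds of 3.29 and 2.64. Fold here is the deposited enrichment of a peak's summit over its local background. The stable sites gathered at the other end of the gene.

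In the last exon of NR5A1, exon 7, within the untranslated part, a region (chr9:124482330-124482773) was present in all 8 libraries. Its folds were 3.37, 3.48, 3.21 and 3.2 in H2A replicates 1 to 4 and 3, 3.23, 3.16 and 4.57 in E92K replicates 1 to 4. The means were 3.32 ± 0.135 and 3.49 ± 0.725 (SD, n = 4 each), and the groups overlapped. Just past the gene end a region of 733 bp (chr9:124480262-124480994) had folds of 3.75 to 6.16 in all 8 libraries, with 47 to 89 fragments piled up at its summit. A further region lay in intron 24 of the adhesion receptor gene ADGRD2 (chr9:124477555-124478604), also in all 8 libraries, and was the weakest of the 3, with folds of 2.25 to 3.2. The receptor gene that drives steroidogenesis therefore had accessible sites beyond its coding end and none called at its start.

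STAR (ENSG00000147465.12, chr8:38142700-38150992, minus strand) encodes the protein that moves cholesterol into mitochondria, the first and rate-limiting step of steroid synthesis. Its window had the fewest peaks of the 9, with 0 in 7 libraries and 1 in H2A replicate 4. That peak was 3.09 kb upstream of the gene start (chr8:38154011-38154279). It had a fold of 2.48, a −log10 q of 2.3 and 18 fragments at the summit, where the lists end at a −log10 q of 2. H2A replicate 4 was also the list with the most peaks, 62044. Among all coding genes 91.1% had a higher median number of window peaks than STAR.

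CYP11A1 (ENSG00000140459.18, chr15:74337759-74367646, minus strand) encodes the side-chain cleavage enzyme, which makes pregnenolone from cholesterol. Neither its promoter nor its body had a peak in any library, and the nearest peak was 5.91 to 6.09 kb from a start. The 2 upstream regions were among the strong ones of the 9 windows. The first, 1896 bp wide with its summit 6.62 kb upstream (chr15:74373560-74375455), lay within 1 kb of the start of a long noncoding RNA gene, ENSG00000274937. Its folds were 8.33, 8.08, 8.2 and 8.26 in H2A and 7.9, 8.39, 8.79 and 9.07 in E92K replicates 1 to 4, and 152 to 205 fragments stood at the summit. The groups overlapped, with means of 8.22 ± 0.105 and 8.54 ± 0.508 (SD, n = 4 each).

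The other upstream region of CYP11A1, 14.9 kb from the start (chr15:74382240-74382943), had folds of 9.42 to 13 in H2A and 10.6 to 11.9 in E92K libraries. By fold it ranked at the 87.6th to 98.8th percentile within the lists. Downstream, intron 11 of CCDC33 held a region in all 8 libraries (chr15:74322510-74323115, folds 5.78 to 8.33) and another in H2A replicate 4 alone. Of the 4 sites around this enzyme gene 3 were thus present in all 8 libraries, and all 4 were remote from its start.

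CYP17A1 (ENSG00000148795.7, chr10:102830531-102837472, minus strand) encodes the hydroxylase and lyase needed for cortisol and for adrenal androgens. It was the only cortex enzyme gene with a peak inside its body. That region, in intron 2 with its summit 2.32 kb downstream of the gene start (chr10:102834754-102835571), had folds of 12, 10.9, 12.8 and 11.2 in H2A and 13.4, 9.75, 11 and 11.6 in E92K replicates 1 to 4. The means were 11.7 ± 0.854 and 11.4 ± 1.51 (SD, n = 4 each), so the groups overlapped. At the 89.8th to 99.5th percentiles of fold within the lists, it was among the strongest peaks of each library. Its near edge was 1.84 to 2 kb from a start, so that with promoters of 2000 bp CYP17A1 counted as having a promoter peak in 3 H2A and 4 E92K libraries. The other region of the window was the promoter of BORCS7, a gene of lysosome positioning, with folds of 11.6 to 13.8.

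The sequences at the summits of the CYP17A1 intron region and of the region 14.9 kb upstream of CYP11A1 are shown because these were the strongest sites of the 9 windows away from other coding promoters. Each is 300 bases of hg38, plus strand, centred on the median summit (chr10:102834999-102835298 and chr15:74382404-74382703). Capitals mark the CTCF core, the sequence bound by the insulator protein CTCF.
CYP17A1 intron: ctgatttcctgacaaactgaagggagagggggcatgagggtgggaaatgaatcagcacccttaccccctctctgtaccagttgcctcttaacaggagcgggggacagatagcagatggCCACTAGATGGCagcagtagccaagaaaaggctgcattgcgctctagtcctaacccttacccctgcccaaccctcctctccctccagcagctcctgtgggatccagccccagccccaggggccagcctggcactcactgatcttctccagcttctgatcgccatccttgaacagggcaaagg
CYP11A1 upstream: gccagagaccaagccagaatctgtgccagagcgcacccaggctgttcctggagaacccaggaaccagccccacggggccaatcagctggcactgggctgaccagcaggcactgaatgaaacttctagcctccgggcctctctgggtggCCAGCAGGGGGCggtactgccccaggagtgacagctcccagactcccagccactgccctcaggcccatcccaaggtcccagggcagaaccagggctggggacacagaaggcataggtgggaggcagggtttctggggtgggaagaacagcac

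The CTCF core stood at chr10:102835117-102835128 and chr15:74382552-74382563, on the plus strand in both. It was found in 3 of the 18 regions present in all 8 libraries, the third being a region of the TH window inside IGF2, and in 8.44% of the 36895 such regions of the whole series. The SF-1 site CAAGGTCA, searched on both strands in the same 300 bases, was in none of the 29 regions and in 1.56% of all 96872 regions. The GATA site AGATAA was also in none of the 29, and in 15.5% of all regions. It did occur in the CYP17A1 promoter (chr10:102837477-102837482), which had no peak, and in 7.56% of 11285 matched RefSeq promoters. A match is a sequence and not a binding event, and a missing match says only that these letters are not in the window.

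CYP21A2 (ENSG00000231852.9, chr6:32038327-32041644, plus strand) encodes the steroid hydroxylase that is deficient in most congenital adrenal hyperplasia. It had no peak over the gene in any library, and the nearest lay 9.53 to 9.68 kb from its start. The single region of its window was in intron 29 of TNXB, a tenascin gene of the extracellular matrix (chr6:32047945-32048733). Its folds were 7.07, 7.96, 7.69 and 9.18 in H2A and 7.06, 10.3, 7.28 and 9.78 in E92K replicates 1 to 4. The groups overlapped, with means of 7.97 ± 0.886 and 8.61 ± 1.68 (SD, n = 4 each). CYP21A2 lies in a duplicated stretch of the HLA region, and its near-identical copy CYP21A1P (chr6:32005689-32008399) had no peak in any library either. How reads that map to both copies were treated is not given in the sources used here, so the missing peaks are uncertain there.

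TH (ENSG00000180176.15, chr11:2163929-2171815, minus strand) encodes tyrosine hydroxylase, the rate-limiting enzyme of catecholamine synthesis. Its window was the most crowded, with 6, 5, 5 and 6 peaks in H2A and 6, 4, 6 and 5 in E92K replicates 1 to 4, and 84.1% of coding genes had a lower median. The promoter itself had no peak. A region 1.42 kb upstream of the gene start (chr11:2173086-2173761) came closest, and was present in 2 H2A and 3 E92K libraries with folds of 3.17 to 3.81 and 12 to 17 fragments at its summit. With promoters of 2000 bp, TH counted as having a promoter peak in those 2 and 3 libraries.

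Inside TH, a region in intron 9 (chr11:2166065-2166669) was present in all 8 libraries. Its folds were 3.05, 2.98, 4.5 and 4.52 in H2A and 3.27, 3.92, 3.39 and 6.17 in E92K replicates 1 to 4, and the groups overlapped. A region 15.1 kb upstream (chr11:2186654-2187322) was also in all 8 libraries, with folds of 3.87 to 5.41. The remaining 3 lay within the annotated span of IGF2, the imprinted fetal growth factor gene that follows TH and INS. Of these, 2 were present in all 8 libraries, with folds of 3.5 to 5.35 (chr11:2151377-2152418) and 4.12 to 6.2 (chr11:2156393-2157057). The latter held the CTCF core (CCAGCAGATGGC at chr11:2156633-2156644, minus strand). The last lay at promoters of IGF2 and of the coding gene ENSG00000284779 (chr11:2150128-2150820), with the start of the latter nearest, at 862 bp. It was called in 4 H2A and 2 E92K libraries (Fisher's exact p = 0.429, adjusted p = 1 over all regions).

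DBH (ENSG00000123454.12, chr9:133636363-133659329, plus strand) encodes the enzyme that turns dopamine into noradrenaline. The nearest peak to its start was 22.1 to 22.2 kb away in each library. That peak covered the last exon, exon 12, with its summit in the untranslated part (chr9:133658484-133659459). Its folds were 7.65, 7.24, 6.7 and 6.39 in H2A and 7.66, 7.01, 7.94 and 8.41 in E92K replicates 1 to 4, with means of 7 ± 0.562 and 7.76 ± 0.587 (SD, n = 4 each) and overlapping groups. The AP-1 site TGACTCA was found near its summit, as in 6.95% of all regions. The only other peak of the window was in intron 17 of SARDH, in E92K replicate 1.

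PNMT (ENSG00000141744.4, chr17:39667981-39670475, plus strand) encodes the enzyme that makes adrenaline from noradrenaline and marks adrenergic chromaffin cells. Its promoter peak (chr17:39668210-39668868) had folds of 4.51, 4.13, 3.69 and 3.46 in H2A and 4.46, 5.43, 4.06 and 4.94 in E92K replicates 1 to 4. The groups overlapped, with means of 3.95 ± 0.469 and 4.72 ± 0.591 (SD, n = 4 each), and 42 to 69 fragments stood at the summit. The summit lay 570 bp downstream of the annotated gene start, in coding exon 1, and 88 bp from the nearest of its 3 starts. Its folds ranked at the 20th to 51.4th percentile within the lists, beside the 59.3rd to 84.7th for the CHGA promoter peak, which was higher in each library.

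The whole PNMT window, promoter peak included, held 4, 3, 4 and 5 peaks in H2A and 4, 3, 2 and 2 in E92K replicates 1 to 4. The means were 4 ± 0.816 and 2.75 ± 0.957 (SD, n = 4 each; exact two-sided permutation p = 0.2, adjusted p = 1 over all coding genes). E92K replicates 3 and 4, with 2 peaks each, had 57431 and 55527 peaks in all, among the 3 shortest lists. With lists of equal length the difference was the same, -1.25 peaks, and with peaks of a q-value of 1e-05 or less it was -0.75; within the gene span alone it was 0. A region in the last exon of STARD3 (chr17:39663762-39664197), a gene for a cholesterol carrier of late endosomes, was called in 3 H2A libraries and no E92K library (Fisher's exact p = 0.143, adjusted p = 1). A region in intron 2 of STARD3 was called in 2 libraries of each group, and one in the last exon of PGAP3 in 2 H2A libraries. The shared promoter region of PGAP3 and ERBB2 (chr17:39687548-39688665) was in all 8 libraries with folds of 10.8 to 12.6.

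CHGA (ENSG00000100604.13, chr14:92923150-92935285, plus strand) encodes chromogranin A, the main soluble protein of chromaffin granules and a general marker of neuroendocrine cells. Its promoter peak (chr14:92922807-92923823) covered the start in all 8 libraries. The folds were 6.18, 6.5, 6.82 and 6.53 in H2A and 6.43, 6.07, 9.04 and 8.15 in E92K replicates 1 to 4. The means were 6.51 ± 0.262 and 7.42 ± 1.41 (SD, n = 4 each), and the groups overlapped, with E92K replicates 3 and 4 above all others. At the summit, in intron 1 and 349 bp past the start, 53 to 80 fragments piled up. The only other stable region of the window lay in intron 8 of the inositol kinase gene ITPK1 (chr14:92951695-92952793, folds 5.26 to 8.1).

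The 250 bases before the CHGA and DBH starts are set side by side as the promoters of 2 chromaffin genes with and without a peak (RefSeq, GRCh38.p14, plus strand, chr14:92922900-92923149 and chr9:133636113-133636362). Capitals mark exact matches to the cyclic AMP response element TGACGTCA.
CHGA: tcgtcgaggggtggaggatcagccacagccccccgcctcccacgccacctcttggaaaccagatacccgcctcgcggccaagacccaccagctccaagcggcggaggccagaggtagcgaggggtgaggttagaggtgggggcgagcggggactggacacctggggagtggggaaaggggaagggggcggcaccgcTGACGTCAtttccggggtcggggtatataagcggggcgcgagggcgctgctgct
DBH: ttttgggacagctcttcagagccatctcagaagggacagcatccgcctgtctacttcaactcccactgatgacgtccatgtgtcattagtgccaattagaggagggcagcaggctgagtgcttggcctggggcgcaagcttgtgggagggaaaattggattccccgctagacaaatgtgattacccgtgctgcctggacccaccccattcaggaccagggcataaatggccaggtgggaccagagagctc

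The cyclic AMP response element of CHGA begins 54 bp before the start (chr14:92923096-92923103), inside the merged peak region. These exact letters were present in 2.88% of the 11285 RefSeq promoters of coding genes that were matched, and in none of the other 5 listed genes that the table holds. Near matches were not searched, and the DBH stretch shown holds TGACGTCC, which differs in the last letter. Further downstream in CHGA, near the summit, lies TTCAGCACC (chr14:92923523-92923531). It is the first part of the RE1 element read by the neuronal repressor REST, and 0.589% of all regions hold it. GC content and CpG observed-to-expected ratio of the 300 bases around the start were 69.3% and 0.678 for CHGA, 59.3% and 0.303 for DBH, 54.7% and 0.227 for CYP11A1, 56.3% and 0.129 for CYP17A1, 57.7% and 0.287 for CYP21A2, and 61.7% and 0.496 for NR5A1. STAR, TH and PNMT were not matched. With 66.7% of the 9 and 57.5% of coding genes matched, a comparison of base composition between sets of promoters was void and was not made.

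**Figure D2:**
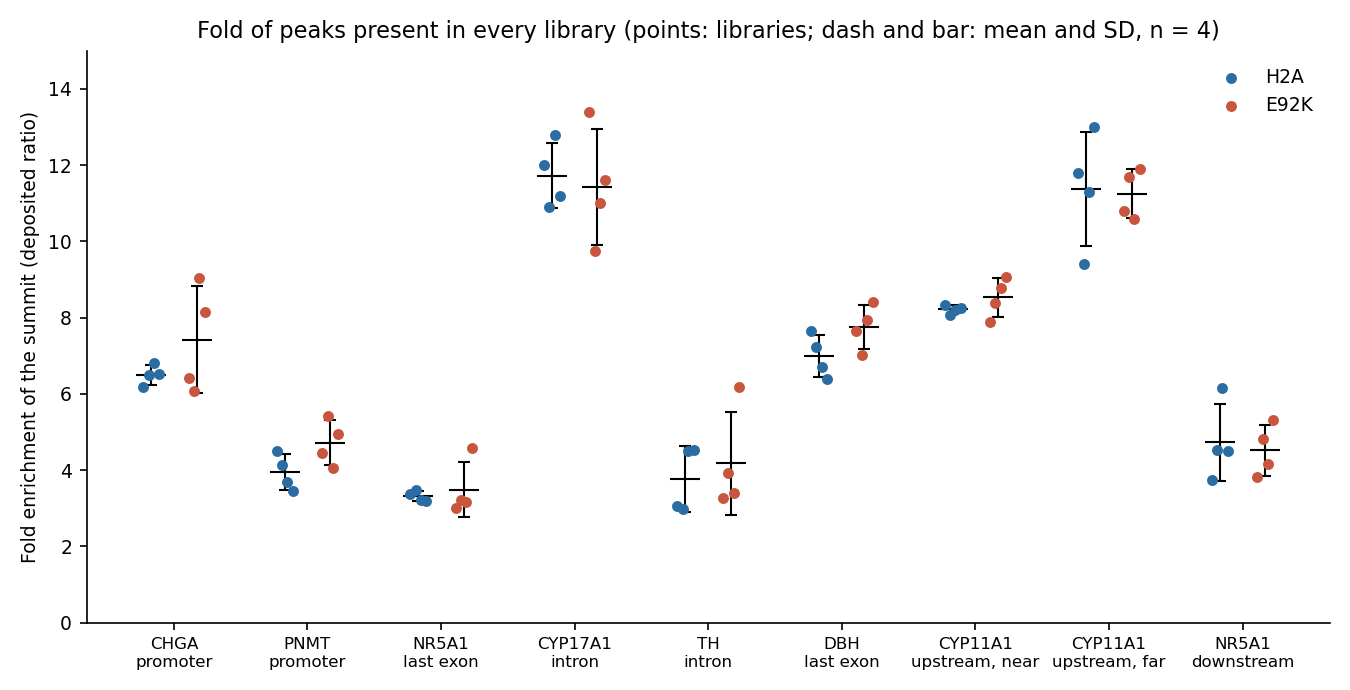
Fold enrichment (deposited ratio, linear axis from 0) of 9 regions present in every library, by group; points are libraries, dashes and bars the mean and SD (n = 4 each). The CYP17A1 intron and the region 14.9 kb upstream of CYP11A1 reach 9.42 to 13.4, the CHGA promoter 6.07 to 9.04 and the PNMT promoter 3.46 to 5.43, and the 2 groups overlap at each.

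None of the 9 genes separated the groups by the number of peaks in its window. The largest difference was that at PNMT given above, and the other differences were 0.5 peaks or less: NR5A1 had 3.5 ± 0.577 in H2A and 3 ± 0 in E92K (exact two-sided permutation p = 0.429, adjusted p = 1), and CYP17A1 and CYP21A2 had the same number in all 8 libraries. Over all coding genes 0.974% had groups that did not overlap, which is the only way to the smallest p of the design, 0.0286, and 0% passed Benjamini-Hochberg adjustment (191 genes at an unadjusted p under 0.05). As for promoters, none could pass that adjustment unless most genes reached the smallest p. By direction, 0.795% of coding genes were lower and 0.178% higher in E92K, with 0 of the 9 in either. Of the 29 regions 0 separated the groups by presence, beside 0.323% of all regions, and 0 had an unadjusted Fisher's exact p under 0.05. Presence was equal in the groups for 19 regions, higher in H2A for 8 and higher in E92K for 2. The 8 and 2 include the 6 regions called in 1 library each. The same split was not counted over all regions, so no lean of these genes is read from it. Summed over the 9 windows, which is a description with no test, the libraries had 23, 21, 21 and 26 peaks in H2A and 23, 19, 20 and 19 in E92K replicates 1 to 4. The highest sum, 26, came from the longest list, that of H2A replicate 4 with 62044 peaks. E92K replicate 2, with 61850 peaks, had 19.

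**Figure D3:**
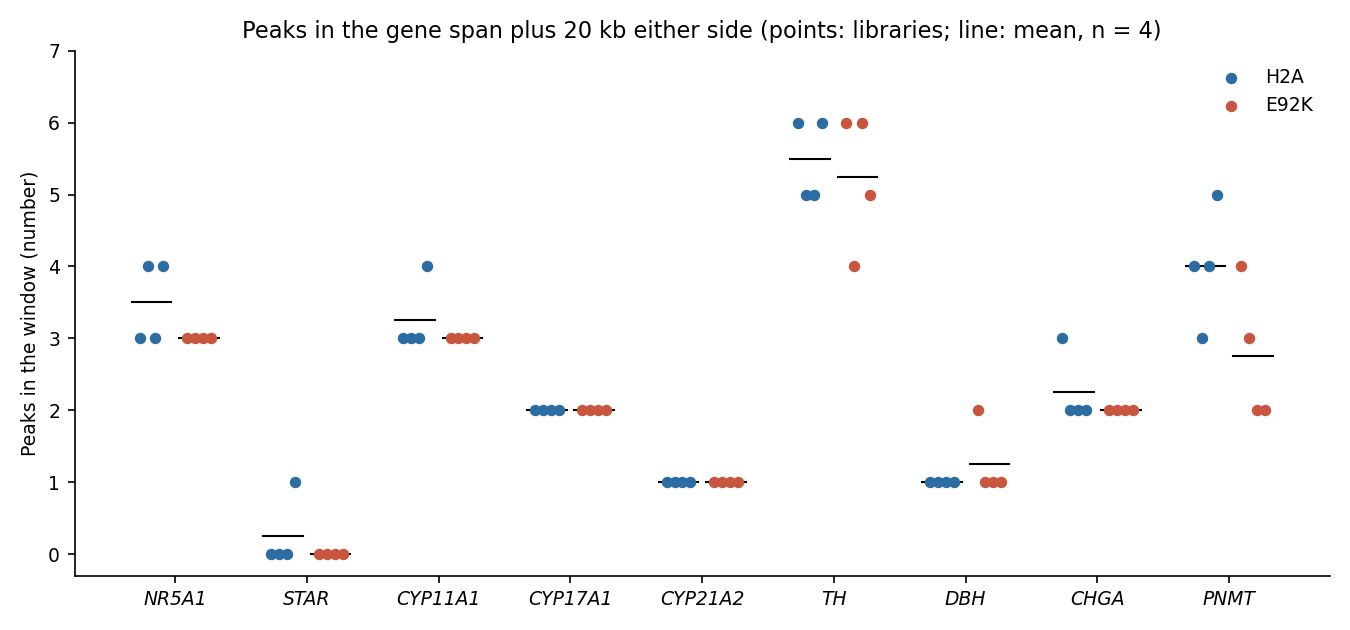
Number of peaks in the window of each gene (gene span plus 20 kb either side) per library; lines are the means of 4 libraries. TH has 4 to 6 peaks, STAR 0 in 7 of 8 libraries, and PNMT 3 to 5 in H2A and 2 to 4 in E92K libraries, so the groups overlap for every gene.

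Other genes of the same tissues, taken from lists of textbook markers, are given by their counts beside the 68% of all coding genes with a promoter peak in all 8 libraries. Of 23 further genes of cortical steroid synthesis and its cholesterol supply 14 (60.9%) had a promoter peak in all 8 libraries and 7 (30.4%) in none. With a peak were the angiotensin receptor gene AGTR1, HSD17B6, the lipoprotein receptor gene SCARB1, SOAT1, TSPO and STARD3, most of which serve cholesterol handling in many tissues. Without one were the corticotropin receptor gene MC2R and its partner MRAP, HSD3B2, HSD3B1, the cortisol and aldosterone synthase genes CYP11B1 and CYP11B2, and the lipase gene LIPE. Reads from CYP11B1 and CYP11B2, and from HSD3B1 and HSD3B2, which are near-identical pairs, may not be told apart. The electron donors FDX1, FDXR and POR, on which the steroid hydroxylases depend in every tissue, had promoter peaks in all 8 libraries; these 3 were picked out after their values were seen.

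Regulators of the cortex mostly had promoter peaks, 22 of 25 (88%) in all 8 libraries, among them NR0B1, encoding the SF-1 antagonist DAX-1, NR5A2, the sister gene of NR5A1, the NR4A1, NR4A2 and NR4A3 orphan receptor genes, GATA4, GATA6 and WT1. SHH and DLK1 had no promoter peak in any library, and TCF21 had one in 2 E92K libraries and no H2A library. Thus the NR5A1 promoter had none in libraries where the promoters of its partner factors had one.

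Among 26 genes of catecholamine handling and granules 19 (73.1%) had a promoter peak in all 8 libraries. They included GCH1, which makes the cofactor of tyrosine hydroxylase, the noradrenaline transporter gene SLC6A2, CYB561, and the granule genes CHGB, SCG2, SCG3, VGF and NPY. The vesicular monoamine transporter genes SLC18A1 and SLC18A2 and the peptide gene CARTPT had none in any library, and DDC, whose product makes dopamine, had one in 1 E92K library. The granule gene SCG5 also had one in 1 library and the peptide gene PENK in 5, so not every granule gene had one in all 8 libraries. Among genes of catecholamine synthesis, PNMT and the cofactor gene GCH1 had one in all 8 libraries, and TH and DBH in none. Neither of the loading genes SLC18A1 and SLC18A2 had one. DDC, SCG5 and PENK were named after their values were seen.

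Of 21 sympathoadrenal factors 15 (71.4%) had a promoter peak in all 8 libraries, including HAND1, HAND2, GATA2, GATA3, ISL1, SOX4 and MYCN. SOX11 and TLX2 had none, and PHOX2A had one in 2 H2A libraries. The list of Schwann cell precursors, from which chromaffin cells descend in part, gave 9 of 14 in all 8 libraries, including FOXD3, ERBB3, TFAP2A, NGFR, SOX2, EDNRB and ITGA4, with SOX10, CDH19 and MIA among those in none. For the labelled tissue, 15 of 17 nephron progenitor genes had a promoter peak in all 8 libraries, including SIX2, WT1, PAX2, SALL1, EYA1, CITED1 and MEOX1, and PAX8 in none. Kidney tubule genes had one in 6 of 18 cases, including SLC12A1, LRP2, SCNN1G, CALB1 and PVALB, while 11 had none, including UMOD, AQP1, AQP2, SLC12A3, SLC34A1, SLC22A6, SLC22A8 and CUBN. No listed gene differed by 3 or more libraries between the groups. TCF21 and PHOX2A were named after their values were seen. A promoter peak is not a transcript, and many promoters of silent genes are accessible, so these counts describe peaks and not cell identity.

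**Figure D4:**
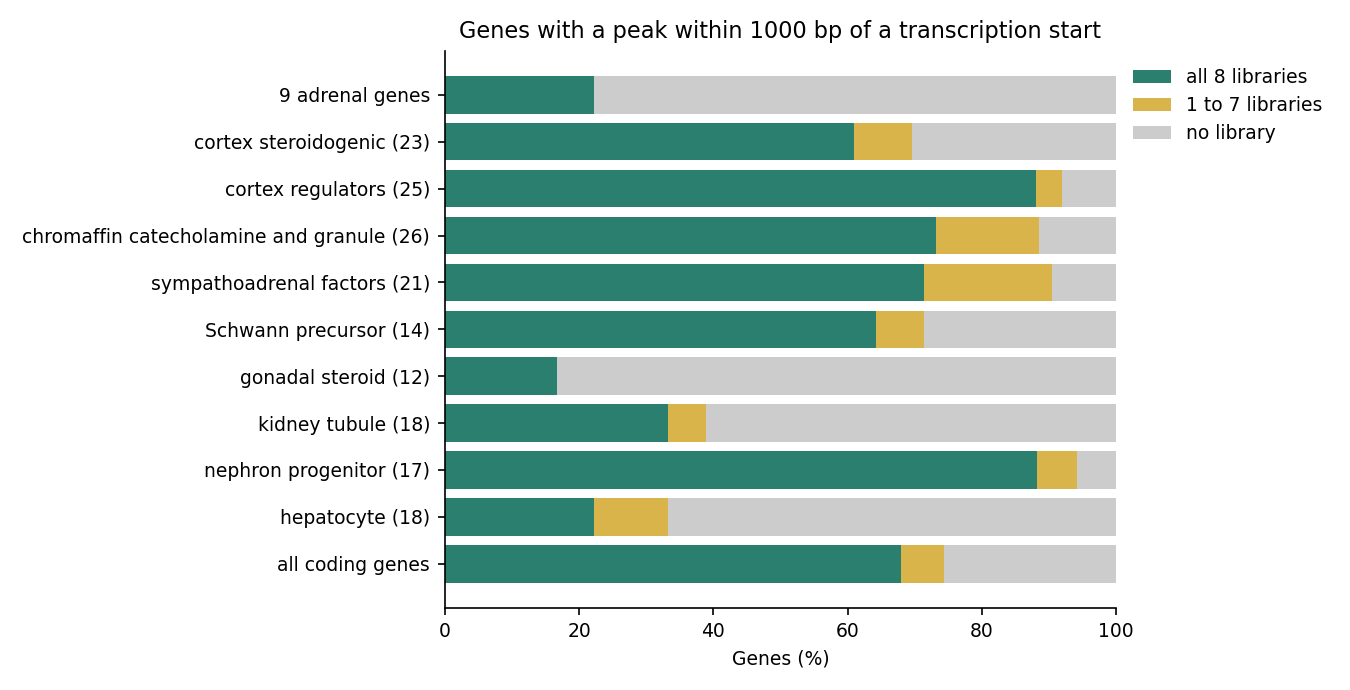
Share of genes (%) with a peak within 1000 bp of a transcription start in all 8 libraries, in 1 to 7 or in none, for the 9 genes, for lists of markers (number of genes in brackets) and for all coding genes. The 9 genes stand at 22.2% in all 8 libraries, the cortex regulators at 88% and all coding genes at 68%.

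The pattern of promoter, gene body and flank peaks over the 8 libraries, 24 values per gene, was set beside that of 170 other listed genes. CYP21A2 was most like CARTPT, with a mean absolute difference of 0 peaks, and CYP17A1 most like MRAP and CDH19 (0.0417 each). STAR was nearest to HSD3B2 and HSD3B1 at 0.0417, where 6 genes tied. DBH was nearest to SOX11 and SRD5A2 and CHGA to GATA2 and EGR1, all at 0.0417, and CYP11A1 to AMH and AQP2 at 0.167. NR5A1 was most like AMHR2 (0.125), TH most like HSD17B1 (0.208) and PNMT most like SOX2 (0.25). These numbers compare counts of peaks in windows and say nothing of function or control.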

How the data were processed

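ATAC-seq peaks of 8 HEK293T libraries (4 H2A, 4 E92K, grouped by title) were analysed. The build was hg38, per the series text; aligner, caller, Tn5 shift and duplicate handling are not given in the sources. The deposited lists have 10 columns in narrowPeak layout, 1 list per library: the fold is a ratio, the p-value and q-value are −log10 values down to a −log10 q of 2, and the deposited score was not used further. The authors' folds only describe peaks within a list.

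Repeated intervals were reduced to the summit with the smallest p-value. Pileups were recovered from fold and p-value as whole numbers. This assumed a Poisson p-value and a fold of pileup plus 1 over background plus 1. They are called fragments here, but whether fragments, reads or cut sites were counted is not stated. Overlapping or touching peaks of the 8 lists were merged into regions, counted as present in a library from 1 bp of cover. Genes came from GENCODE 44 (19617 coding genes on chromosomes 1 to 22 and X). Exact two-sided permutation tests used 70 assignments, and Fisher's exact tests presence in 4 against 4, each adjusted over all genes or regions (Python 3.11.15, SciPy 1.17.1). Steps were tested on simulated data. Motifs were searched in 300 bp around median summits. Described in full were regions at promoters of the 9 genes or in all 8 libraries; of lists, up to 8 genes with and without peaks, in list order, and any differing by 3 libraries; some listed genes are counted but not reported by name here. The genes, lists and rules were chosen with earlier results of these data known. Alternatives were stricter or equal-sized lists, promoters of 500 and 2000 bp, flanks of 0 and 50 kb, summits, gene starts alone, left-out libraries and a replicate block.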

Additional observations from a re-analysis of the deposited data

Results flagged for a closer look

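In 7 of 55 groups of 4 values, 1 library stood apart from the other 3 by more than Dixon's 95% critical value for 4 samples. Chance does this in about 1 of 20 groups of continuous values such as folds; that rate does not hold for small counts of peaks, where any 3 equal values set the other apart. For folds, E92K replicate 4 was high in the last exon of NR5A1 with 4.57. H2A replicate 2 was low at the IGF2 and ENSG00000284779 promoter region of the TH window with 2.8. H2A replicate 1 was low at the shared PGAP3 and ERBB2 promoter of the PNMT window with 10.8. For peaks per window, H2A replicate 4 had 1 at STAR and 4 at CYP11A1, E92K replicate 1 had 2 at DBH, and H2A replicate 1 had 3 at CHGA, the other 3 libraries of the group being equal in each case.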

How the results depend on the processing

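CHGA and PNMT were the genes among the 9 with a promoter peak in every library under all 17 alternatives, and 0 genes separated the groups by promoter or by window peak number under any of them. With the replicate block, where every same-numbered pair had to differ the same way, 0 regions and 0 genes separated. Same-numbered libraries did not deviate together (correlations of -0.05 to 0.00 over 36895 regions), and neither did differently numbered ones. These values gave no sign of pairing but cannot show how the libraries were prepared, and whether they were handled in pairs is not stated. The regions in every library numbered 18, and 6 with the gene spans alone and 33 with flanks of 50 kb, where the number of bases searched differs by construction. Leaving out a library gave 0 to 1 regions that separated the groups, the 1 being that in the last exon of STARD3 without H2A replicate 2. Over all coding genes 191 separated by window peak number, 422 with the block, 107 with the gene spans alone and 314 to 388 with a library left out; over all regions 313 separated, and 555 to 633 with a library left out; over all promoters 6, and 9 to 20 with a library left out, where fewer libraries have to differ, and 9 at a q-value of 1e-05 or less. The difference at TH, -0.25 peaks, ranged from -0.5 to 0.167 when a library was left out, being 0.167 without E92K replicate 2. No other gene's difference changed sign under any alternative, though that of CYP17A1 went from 0 to 1 with flanks of 50 kb. With promoters of 2000 bp CYP17A1 and TH gained a promoter peak in 7 and 5 libraries. Depth limits what a missing peak shows, since weak sites such as that upstream of TH rest on 12 to 17 fragments.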

Other observations

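Genes of 2 further tissues were counted in the same way. Of 12 gonadal steroid genes 10 had a promoter peak in no library, among them CYP19A1, HSD17B1, HSD17B3, LHCGR, FSHR, INSL3, AMH and FOXL2, and INHBA was among those with one in all 8. Of 18 hepatocyte genes 12 had one in no library, including ALB, APOA2, TF, FGA, FGB, CYP3A4 and TAT, while APOB, TTR, CYP2E1 and CPS1 had one in all 8.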
